A study of Homo sapiens with 16 samples.

Results

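Genes that respond to the co-activators YAP and TAZ or to transforming growth factor beta (TGF-beta) were described in 2 human melanoma lines, A101D and MeWo, from 16 total RNA-seq libraries. The genes of the co-activators, YAP1 and WWTR1, and of their DNA-binding partner, TEAD1, were described with them. Together they were 9 named genes of the 60676 gene identifiers in the count tables: CCN1, CCN2, ANKRD1, AMOTL2, TGFBI, SMAD7, TEAD1, YAP1 and WWTR1. Each symbol was matched to its Ensembl identifier, and all 9 genes were found in both tables. All 9 also passed the filter on low counts, which kept 21569 genes. A101D is labelled as dependent on methionine, and MeWo as independent of it. The study asked what follows when homocysteine takes the place of methionine in the culture medium. All cells were grown with 150 µM cystine and 5% dialyzed serum. The control medium held 200 µM methionine, and the other medium held 200 µM homocysteine and no methionine. No label says which library came from which medium, so the 8 libraries of a line are named here only by their replicate numbers, and replicates 1-4 (the first set) and 5-8 (the second set) of each line are shown side by side. Nothing in the labels says whether replicates came from separate cultures, so the tests measure only the spread between these libraries, which may be technical. Each line is 1 established cell line.

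YAP (encoded by YAP1) and TAZ (encoded by WWTR1) are transcriptional co-activators at the end of the Hippo pathway. They do not bind DNA themselves but act through TEAD factors such as TEAD1, and the Hippo kinases LATS1 and LATS2 keep them out of the nucleus by phosphorylation. Well-known YAP/TAZ/TEAD targets are CCN1 and CCN2 (CYR61 and CTGF, secreted matricellular proteins), ANKRD1 (an ankyrin repeat protein of muscle and stressed cells) and AMOTL2 (an angiomotin that binds YAP and restrains it). TGF-beta acts through receptor kinases and SMAD proteins. TGFBI, a secreted matrix protein, and SMAD7, an inhibitory SMAD that feeds back on the receptor, are well-known TGF-beta-induced genes, and CCN2 is a target of both pathways. In melanoma, YAP/TAZ and TGF-beta activity are known for their link to dedifferentiated, invasive cell states.

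Of the 7 genes with a RefSeq promoter window, CCN2 and ANKRD1 had more than 1 match to the TEAD core letters GGAATG. The search covered the 250 bases before a RefSeq start, and the sequences of CCN2 and ANKRD1 are shown before their values. The stretches were taken from RefSeq promoter windows (GRCh38.p14), which hold 7 of the 9 genes. CCN1 and TEAD1 had no window and were not searched. The CCN2 stretch is chr6:131951374-131951622 on the minus strand. The first ANKRD1 stretch is chr10:90921277-90921337 and the second is chr10:90921203-90921232, both on the minus strand, the first before the GENCODE start of the gene and the second between its GENCODE and RefSeq starts. Capitals mark GGAATG and the SMAD core letters CAGAC, each searched on both strands.
CCN2 promoter: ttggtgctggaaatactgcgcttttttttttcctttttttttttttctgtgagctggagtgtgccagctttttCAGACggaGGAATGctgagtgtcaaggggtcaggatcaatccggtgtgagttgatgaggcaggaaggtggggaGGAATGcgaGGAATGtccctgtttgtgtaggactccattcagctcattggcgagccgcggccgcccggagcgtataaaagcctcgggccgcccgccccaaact
ANKRD1 upstream: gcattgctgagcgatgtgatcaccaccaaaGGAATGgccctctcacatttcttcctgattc
ANKRD1 site: tccCAGACactgaGTCTGGAATGaaaattc
In CCN2 the 3 GGAATG matches began 169, 104 and 95 bases before the start, and a CAGAC match began 177 bases before it. In ANKRD1 the GGAATG matches began 220 and 128 bases before the RefSeq start. The ANKRD1 CAGAC letters began 142 bases before it, and on the other strand (read as GTCTG) 132 bases before it, where they share 1 base with GGAATG. YAP1 had 1 GGAATG match (162 bases before its start), and AMOTL2 had 1 in the second of its windows (69 bases before), with 1 CAGAC match in the first (95 bases before). SMAD7 had 2 CAGAC matches in the first of its 3 windows and 1 in the second. No match of either kind lay in the windows of TGFBI or WWTR1. Among all 35116 windows of this length, 11.9% held at least 1 GGAATG, 0.940% at least 2 and 0.0826% at least 3, and 38.0% held at least 1 CAGAC. These matches describe the letters only, since binding was not measured.

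Total counts ran from 28910881 to 38961862 over the A101D libraries and from 31217443 to 38722489 over the MeWo libraries. Genes with a count numbered 31281 to 33107 in A101D replicates 1-4 and 34020 to 34607 in A101D replicates 5-8. MeWo replicate 2 stood apart with 34471 such genes, against 30066 to 31433 in the other MeWo libraries. The melanocyte markers SOX10 and MITF were present in both lines, while the pigment genes TYRP1 and GPR143 were near 0 in A101D (at most 1.41 CPM as a mean of 4 libraries, CPM being counts per 1000000). Summed over the 10 melanocyte markers, A101D libraries held 2530 to 3492 CPM and MeWo libraries 10464 to 12215 CPM. In the test described below, 8 of the 10 were higher in MeWo and 2 lower (all tested genes: 38.1% and 40.5%).

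In A101D all 9 genes separated replicates 5-8 from replicates 1-4, whereas in MeWo most did not. CCN1, CCN2, ANKRD1, AMOTL2, SMAD7 and YAP1 were higher in A101D replicates 5-8, and TGFBI, TEAD1 and WWTR1 were lower. The largest difference was that of ANKRD1, at 3.17-fold. MeWo had less RNA of 8 of the genes than A101D, and more of TEAD1. In the test with limma, with Benjamini-Hochberg adjustment over all genes and a threshold of 0.05, 6 genes were higher and 3 lower between the sets of A101D, where 65.2% of all tested genes passed (33.0% higher, 32.3% lower). Between the sets of MeWo, 0 were higher and 2 lower, where 13.5% of all tested genes passed (4.65% higher, 8.85% lower). At an unadjusted p under 0.05 it was 0 higher and 3 lower, and limma-trend also called 2 of the 9. Libraries of the 2 sets did not overlap for any of the 9 genes in A101D (6 above, 3 below), as for 59.6% of all tested genes (29.9% above, 29.7% below). In MeWo they did not overlap for CCN2, TEAD1 and WWTR1, all 3 below (8.98% of all tested genes, and 6.05% above), although the CCN2 libraries did overlap with library totals or upper-quartile factors as the scaling. The direction split of MeWo calls over all genes, though not the 2 calls among the 9 genes, depended on the scaling: 34.5% of calls were higher, but 66.3% with library totals as the only scaling. In bulk RNA, fewer cells that express a gene and less RNA per cell cannot be told apart.

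**Figure D1:**
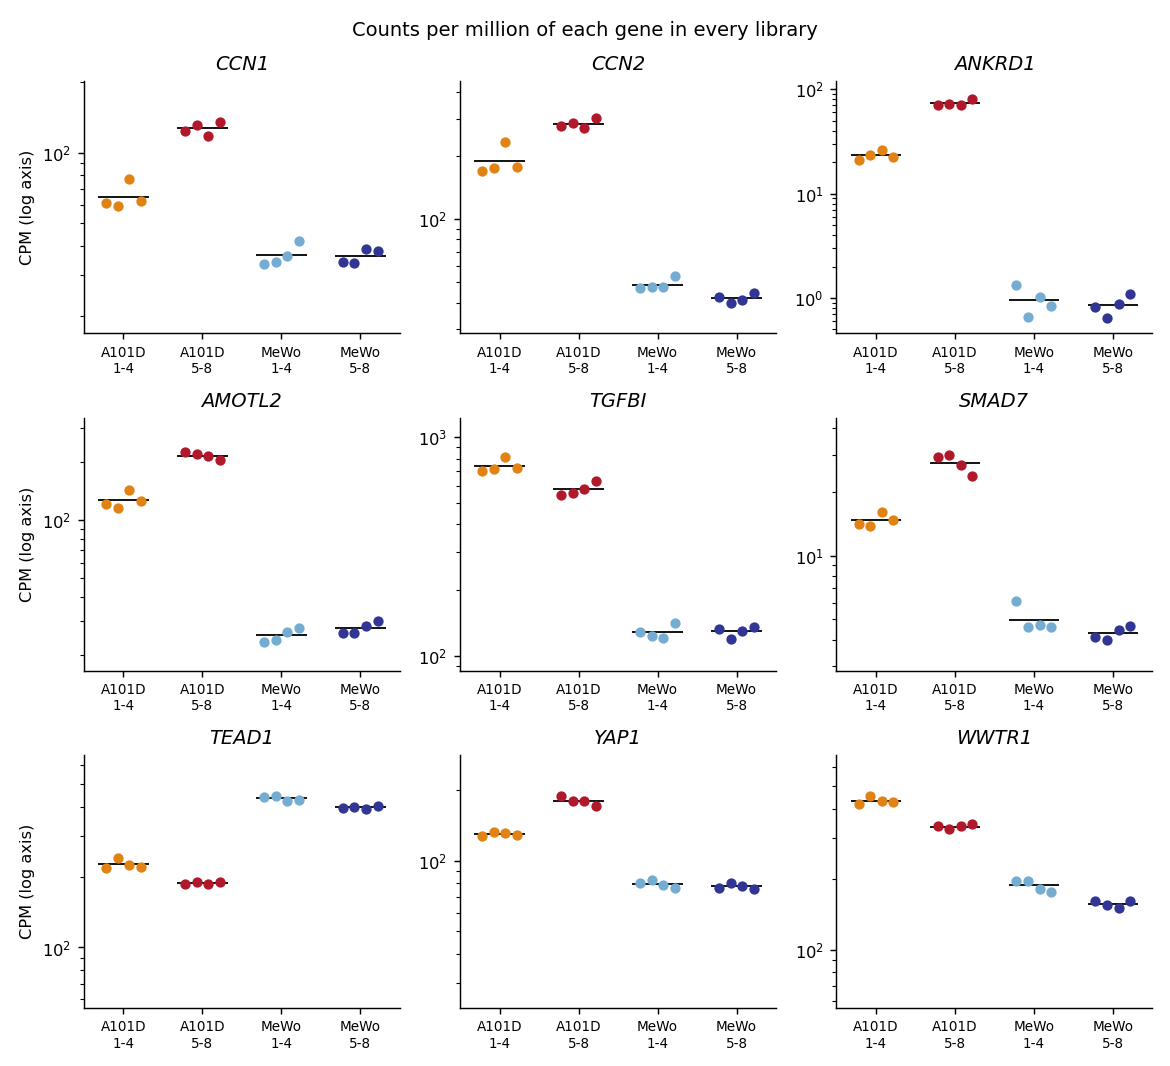
CPM of each gene on a log axis, with 1 point per library and a line at the mean of each set of 4; the columns are A101D replicates 1-4 and 5-8 and MeWo replicates 1-4 and 5-8. ANKRD1 lay at 21.1 to 26.1 CPM in A101D replicates 1-4, at 70.3 to 79.9 CPM in replicates 5-8 and at 0.641 to 1.34 CPM in MeWo.

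YAP1, the co-activator gene, lies on chromosome 11 (ENSG00000137693, 102110461 to 102233423, plus strand; GENCODE 29 on GRCh38). In A101D it was at 128, 133, 131 and 129 CPM in replicates 1-4 and at 188, 179, 179 and 171 CPM in replicates 5-8. The MeWo libraries were at 80.2, 82.7, 78.4 and 76.1 CPM in replicates 1-4 and at 76.5, 80.3, 78.2 and 75.7 CPM in replicates 5-8. All A101D libraries of the second set were above those of the first, the MeWo sets overlapped, and every MeWo library was below every A101D library. The A101D sets differed by 0.46 ± 0.04 on the log2 scale (SE; 1.38-fold higher in replicates 5-8, adjusted p = 8.4e-15). In MeWo the difference was -0.03 ± 0.04 (95% interval -0.11 to 0.05, adjusted p = 0.706).

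WWTR1, which encodes TAZ, lies on chromosome 3 (ENSG00000018408, 149517235 to 149736714, minus strand). Its A101D libraries held 420, 451, 432 and 428 CPM in replicates 1-4 and 337, 326, 336 and 343 CPM in replicates 5-8. Its MeWo libraries held 197, 197, 182 and 176 CPM in replicates 1-4 and, in the same order for replicates 5-8, 161, 155, 151 and 161 CPM. The second set was below the first in both lines with no overlap, so WWTR1 and YAP1 went in opposite directions in A101D. WWTR1 differed by -0.37 ± 0.04 (log2, SE; adjusted p = 3.02e-12) in the second set of A101D and by -0.26 ± 0.04 (adjusted p = 6.71e-06) in that of MeWo. An antisense gene, WWTR1-AS1, overlaps 795 of its exonic bases (9.45%) but held only 0.967 to 2.32 CPM, and the strand setting of the counting is not given in the sources used here.

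TEAD1, the DNA-binding partner, lies on chromosome 11 (ENSG00000187079, 12674591 to 12944483, plus strand). It was at 218, 241, 226 and 221 CPM in A101D replicates 1-4 and at 187, 191, 186 and 191 CPM in replicates 5-8. Its MeWo levels were 440, 442, 423 and 429 CPM, then 396, 398, 391 and 402 CPM. TEAD1 alone of the 9 genes was higher in MeWo than in A101D, in every library, and its second set lay below its first in both lines. The sets differed by -0.26 ± 0.04 in A101D (log2, SE; adjusted p = 1.27e-08) and by -0.13 ± 0.03 in MeWo (adjusted p = 0.00556). MeWo against A101D was 2.01-fold higher over all libraries (log2 difference 1.01 ± 0.06, adjusted p = 2.3e-11).

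Per length of merged exons, WWTR1 exceeded YAP1 in every library. The ratio of WWTR1 to YAP1 (both in CPM per kb) was 2.49 ± 0.03 (SD, n = 4) in A101D replicates 1-4 and 1.4 ± 0.07 in replicates 5-8, with no overlap. In MeWo it was 1.77 ± 0.05 and 1.51 ± 0.08. The sum of YAP1 and WWTR1 was 72.1 ± 1.94 and 68.4 ± 1.16 CPM per kb in the A101D sets, without overlap, and 34.9 ± 1.68 and 31.0 ± 0.43 CPM per kb in MeWo. The lines differed in the summed level of the co-activators, and the A101D sets more in their ratio than in their sum.

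The TEAD family was made up differently in the lines. TEAD1 was 35.6% ± 1.26 (SD, n = 4) and 41.1% ± 0.72 of the summed TEAD1 to TEAD4 level per kb in the first and second set of A101D, and 64.0% ± 0.54 and 64.6% ± 1.31 in MeWo. TEAD4 made up 36% ± 1.58 and 29.5% ± 2.17 in A101D and 16.1% ± 0.32 and 14.8% ± 1.02 in MeWo. In A101D replicates 1-4 TEAD1 and TEAD4 thus had about equal shares, whereas TEAD1 predominated in MeWo. The summed level was 61.9 ± 0.59 and 44.7 ± 1.25 CPM per kb in A101D, and 65.9 ± 1.62 and 59.7 ± 1.14 CPM per kb in MeWo. These shares are descriptions, with no test, and depend on the merged exon length taken for each gene.

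**Figure D2:**
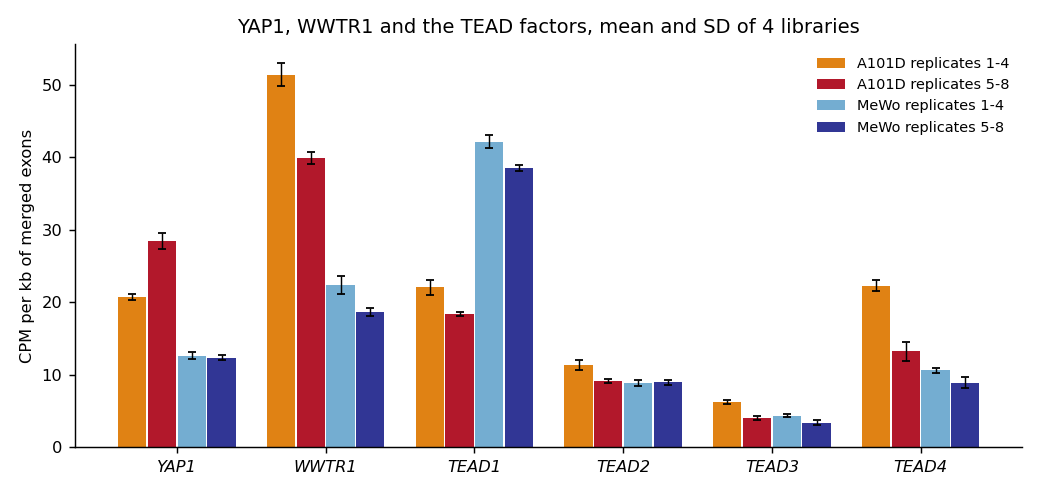
CPM per kb of merged exons of YAP1, WWTR1 and TEAD1 to TEAD4; bars are means of 4 libraries and error bars their SD, coloured by line and replicate set. WWTR1 was the highest of the 6 in A101D (51.4 and 39.9 CPM per kb), and TEAD1 in MeWo (42.2 and 38.6 CPM per kb).

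CCN1, a matricellular target, lies on chromosome 1 (ENSG00000142871, 85580761 to 85583962, plus strand). In A101D it was at 61.0, 58.9, 77.3 and 62.2 CPM in replicates 1-4 and at 124, 132, 118 and 135 CPM in replicates 5-8. MeWo libraries gave 33.5, 34.2, 36.2 and 42.1 CPM, then 34.0, 33.9, 38.7 and 38.1 CPM. The A101D sets did not overlap and the MeWo sets did. CCN1 was 1.98-fold higher in the second set of A101D (log2 difference 0.98 ± 0.08, SE; adjusted p = 7.58e-10), and in MeWo the difference was -0.01 ± 0.09 (95% interval -0.20 to 0.18, adjusted p = 0.967).

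CCN2, its paralog, lies on chromosome 6 (ENSG00000118523, 131948176 to 131951373, minus strand), next to the stretch printed above. It was at 170, 175, 232 and 177 CPM in A101D replicates 1-4 and at 277, 287, 271 and 302 CPM in replicates 5-8. In MeWo it was at 47.1, 47.3, 47.3 and 53.6 CPM, then at 42.4, 40.0, 41.0 and 44.3 CPM. With the main scaling the sets did not overlap in either line, but they lay in opposite order: the second set was the higher in A101D and the lower in MeWo. In A101D the difference was 0.61 ± 0.07 on the log2 scale (SE; 1.52-fold, adjusted p = 1.93e-06). The MeWo difference was -0.22 ± 0.09 and did not pass (unadjusted p = 0.0336, adjusted p = 0.151), although without A101D replicate 3 it did (-0.20, adjusted p = 0.00488; range of adjusted p over all alternatives 0.00488 to 0.542). The ratio of CCN2 to CCN1 per kb was 3.05 ± 0.10 (SD, n = 4) and 2.35 ± 0.06 in A101D and 1.41 ± 0.07 and 1.22 ± 0.08 in MeWo.

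ANKRD1 lies on chromosome 10 (ENSG00000148677, 90912096 to 90921276, minus strand), and the GENCODE start lies 189 bases before the RefSeq start. In A101D it was at 21.1, 23.4, 26.1 and 22.3 CPM in replicates 1-4 and at 70.4, 71.5, 70.3 and 79.9 CPM in replicates 5-8. The MeWo libraries were at 1.34, 0.66, 1.02 and 0.832 CPM, then at 0.817, 0.641, 0.879 and 1.10 CPM, from 20 to 46 counts per library. The A101D sets were far apart, and MeWo was low in every library. The A101D difference was 1.66 ± 0.06 on the log2 scale (SE; adjusted p = 9.11e-28). The MeWo difference was -0.15 with a 95% interval from -0.65 to 0.36 (adjusted p = 0.779), so a difference of the size estimated for CCN2 in MeWo was not detectable at this depth.

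AMOTL2, a target that also binds YAP, lies on chromosome 3 (ENSG00000114019, 134355874 to 134375479, minus strand). It was at 122, 116, 144 and 126 CPM in A101D replicates 1-4 and at 225, 221, 214 and 204 CPM in replicates 5-8. Its MeWo levels were 23.3, 23.9, 26.3 and 27.7 CPM, then 26.1, 26.2, 28.4 and 30.1 CPM. The sets of A101D were separate and those of MeWo overlapped. The A101D difference was 0.77 ± 0.05 (log2, SE; 1.70-fold higher, adjusted p = 3.43e-16), and the MeWo difference was 0.13 ± 0.07 (adjusted p = 0.219).

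SMAD7, the feedback inhibitor, lies on chromosome 18 (ENSG00000101665, 48919853 to 48952052, minus strand). In A101D it was at 14.1, 13.8, 16 and 14.8 CPM in replicates 1-4 and at 29.3, 29.7, 26.7 and 23.8 CPM in replicates 5-8. MeWo libraries gave 6.11, 4.59, 4.68 and 4.58 CPM, then 4.12, 4.01, 4.45 and 4.64 CPM. Only the A101D sets were separate, and MeWo replicate 1 was the highest of its line. SMAD7 was 1.87-fold higher in the second set of A101D (log2 difference 0.90 ± 0.07, SE; adjusted p = 6.01e-16) and did not pass in MeWo (-0.20 ± 0.12, adjusted p = 0.294).

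TGFBI, the other TGF-beta target, lies on chromosome 5 (ENSG00000120708, 136028895 to 136063818, plus strand) and went the other way. It was at 701, 719, 816 and 722 CPM in A101D replicates 1-4 and at 546, 555, 579 and 632 CPM in replicates 5-8. In MeWo it was at 129, 123, 121 and 142 CPM, then at 133, 120, 130 and 136 CPM. All A101D libraries of the second set were below those of the first, while the MeWo sets overlapped. The A101D difference was -0.35 ± 0.05 (log2, SE; adjusted p = 4.2e-07), and that in MeWo was 0.01 ± 0.06 (95% interval -0.11 to 0.13, adjusted p = 0.948). TGFBI therefore differed between the A101D sets in the opposite direction from SMAD7, and from CCN2, the target of both pathways.

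The difference between the sets was itself compared between the lines, by an interaction term (the change in MeWo minus that in A101D). It passed for 8 of the 9 genes, 2 higher and 6 lower, where 48.5% of all tested genes passed (24.6% higher, 24.0% lower). The interaction was -1.81 ± 0.26 for ANKRD1 (log2, SE; adjusted p = 9e-08), -1.11 ± 0.14 for SMAD7 (4.37e-09), -0.99 ± 0.12 for CCN1 (7.29e-07) and -0.83 ± 0.12 for CCN2 (2.25e-05). It was -0.64 ± 0.08 for AMOTL2 (adjusted p = 6.27e-08) and -0.49 ± 0.05 for YAP1 (2.88e-10). It was positive for TGFBI, at 0.36 ± 0.08 (adjusted p = 0.000247), and for TEAD1, at 0.13 ± 0.05 (0.0196). For WWTR1 it was 0.11 ± 0.05 and did not pass (adjusted p = 0.0914), with the same direction in both lines. The TEAD1 call was lost with library totals as the only scaling (adjusted p = 0.0529), and the TGFBI call without the filter on low counts (0.0772). The WWTR1 term passed in 10 of its 24 alternatives, among them leaving out MeWo replicate 2 (adjusted p = 0.041) (range over the alternatives 0.0165 to 0.213).

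**Figure D3:**
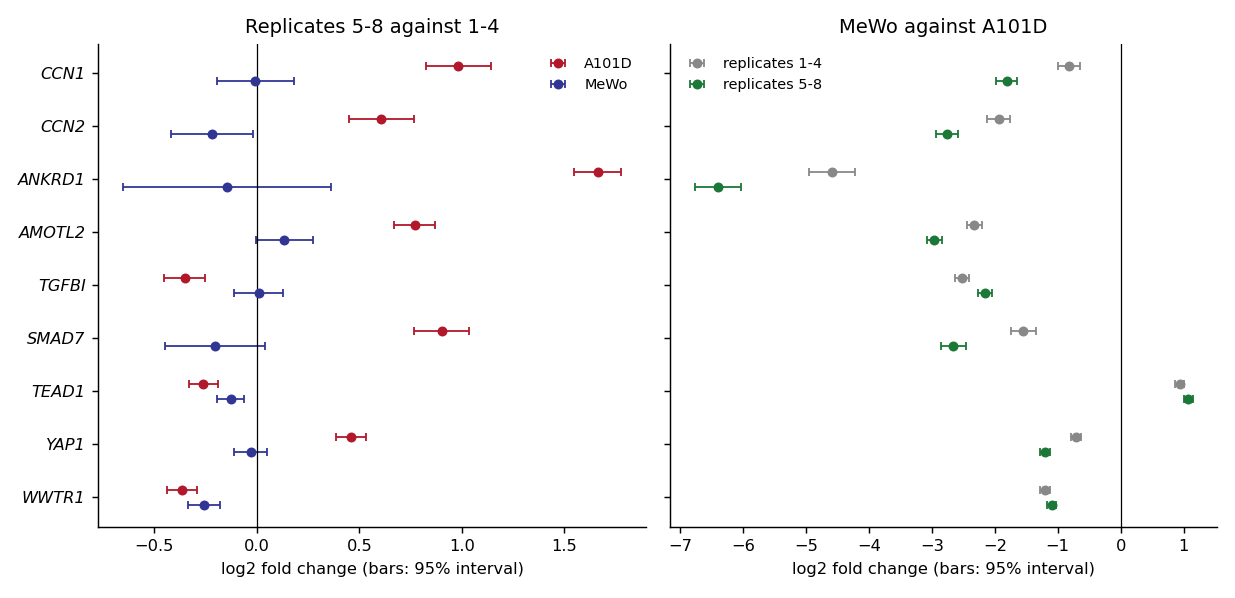
Log2 fold changes with 95% intervals. On the left, replicates 5-8 against 1-4 in A101D (red) and MeWo (blue), and on the right, MeWo against A101D in replicates 1-4 (grey) and 5-8 (green). In A101D the intervals of all 9 genes exclude 0, from -0.37 for WWTR1 to 1.66 for ANKRD1, and on the right TEAD1 is the only gene above 0.

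Over all libraries, MeWo against A101D gave 1 gene higher and 8 lower, where 78.5% of all tested genes passed (38.1% higher, 40.5% lower), and for all 9 every library of MeWo lay outside the range of A101D (8 below, 1 above). The same was true of 54.8% of all tested genes, 25.4% above and 29.4% below. ANKRD1 differed most, 45.6-fold lower in MeWo (log2 difference -5.51 ± 0.60, SE; adjusted p = 1.58e-07). AMOTL2 was 6.25-fold lower (-2.64 ± 0.16, adjusted p = 4.05e-11), CCN2 5.11-fold lower (-2.35 ± 0.13, 1.48e-11) and TGFBI 5.06-fold lower (-2.34 ± 0.08, 1.09e-14). SMAD7 was 4.34-fold lower (-2.12 ± 0.21, adjusted p = 4.77e-08) and CCN1 2.50-fold lower (-1.32 ± 0.19, 5e-06). The co-activator genes differed less, WWTR1 by 2.22-fold (-1.15 ± 0.08, adjusted p = 7.18e-10) and YAP1 by 1.95-fold (-0.96 ± 0.09, 1.32e-08).

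Because A101D differed between its sets, the size of the line difference depended on the set. In replicates 1-4, where 79.3% of all tested genes passed, CCN1 differed between the lines by -0.82 ± 0.08 (log2, SE), CCN2 by -1.94 ± 0.09 and ANKRD1 by -4.59 ± 0.18. In replicates 5-8, where 84.1% passed, the same genes differed by -1.81 ± 0.08, -2.76 ± 0.08 and -6.40 ± 0.18. For TGFBI the line difference was smaller in the second set, at -2.16 ± 0.05 against -2.52 ± 0.05. All 9 genes passed in each set with 1 higher and 8 lower (38.1% and 41.2% of all tested genes in replicates 1-4, 40.4% and 43.6% in replicates 5-8), and the largest adjusted p was 3.59e-08 (CCN1, replicates 1-4).

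Levels of different genes were compared per kb of merged exons. Merged exons hold every annotated exon of a gene, whichever transcripts the cells made, so the order depends on this length. TGFBI had 7.81 kb and CCN2 2.34 kb. By CPM alone TGFBI was the higher of them in A101D replicates 5-8, with means of 578 and 284 CPM. In A101D replicates 1-4 the highest were TGFBI (94.7 ± 6.65 CPM per kb, SD, n = 4) and CCN2 (80.7 ± 12.5), whose libraries overlapped, followed by WWTR1 (51.4 ± 1.57) and CCN1 (26.4 ± 3.43). TEAD1 (22 ± 0.98), AMOTL2 (21.2 ± 2.03) and YAP1 (20.7 ± 0.39) overlapped as neighbours, and ANKRD1 (11.7 ± 1.08) and SMAD7 (2.91 ± 0.19) came last. In A101D replicates 5-8 CCN2 led (122 ± 5.73), above TGFBI (74 ± 4.95) and CCN1 (51.8 ± 3.23). WWTR1 (39.9 ± 0.81), ANKRD1 (36.9 ± 2.33) and AMOTL2 (36.1 ± 1.56) then overlapped, above YAP1 (28.5 ± 1.08), TEAD1 (18.3 ± 0.26) and SMAD7 (5.44 ± 0.54).

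In MeWo the order differed: TEAD1 led in both sets (42.2 ± 0.88 and 38.6 ± 0.44 CPM per kb). WWTR1 followed at 22.3 ± 1.26 and 18.6 ± 0.58, overlapping CCN2 at 20.9 ± 1.36 and 17.9 ± 0.79. TGFBI (16.5 ± 1.18 and 16.6 ± 0.92), CCN1 (14.9 ± 1.59 and 14.7 ± 1.07) and YAP1 (12.6 ± 0.45 and 12.3 ± 0.32) came next, TGFBI overlapping CCN1. Below these were AMOTL2 (4.23 ± 0.34 and 4.63 ± 0.32), SMAD7 (0.991 ± 0.15 and 0.856 ± 0.06) and ANKRD1 (0.487 ± 0.15 and 0.434 ± 0.10). Set against all 21102 genes with a length, ANKRD1 was above 94.7% of them in A101D replicates 5-8 and above 28.5% in MeWo replicates 5-8. CCN2 was above 99.1% and 86.9% of them in the same sets.

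Other genes of the pathways were taken from lists, whose counts are to be read against the shares of all tested genes: 33.0% higher and 32.3% lower between the A101D sets, 4.65% and 8.85% between the MeWo sets, and 38.1% and 40.5% in MeWo against A101D. The list counts are those of the main scaling. Of all calls between the MeWo sets, 34.5% were higher with that scaling and 66.3% with library totals. Line differences of list genes are over all libraries, so they average over the A101D sets where these differed. Of 22 YAP/TAZ targets, 16 were higher and 5 lower in the second set of A101D (all genes: 33.0% and 32.3%), with a median of 0.46 on the log2 scale against 0.0049 over all tested genes. Without the 4 genes already described, 12 of 18 were higher and 5 lower (median 0.28). CCDC80, a matrix protein, went from 42.3 ± 2.77 to 103 ± 8.03 CPM (SD, n = 4; 1.29 ± 0.05 log2, SE; adjusted p = 1.56e-25), and GADD45A, a stress-response gene, from 38.5 ± 0.60 to 93.4 ± 6.87 CPM (1.27 ± 0.05, adjusted p = 9.09e-27). In MeWo only 1 of the 22 was higher and 6 lower (median -0.10, against -0.02 over all genes). GADD45A was the higher one (0.38 ± 0.07, adjusted p = 0.000351), and FJX1 was lower (-0.41 ± 0.06, adjusted p = 3.51e-06).

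Between the lines, 15 of the 22 YAP/TAZ targets were lower in MeWo and 6 higher (median -1.38 against -0.03 over all genes; without the members 11 of 18 lower, median -0.78). IGFBP3, an insulin-like growth factor binding protein, was 69.4-fold lower, with means of 772 and 862 CPM in the A101D sets and 11.0 and 12.6 CPM in MeWo. CCDC80 was 15.2-fold, the kinase NUAK2 13.3-fold and GADD45A 5.17-fold lower. The largest adjusted p of these 4 was 3.47e-07.

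Of 20 Hippo core and regulator genes, 7 were higher and 7 lower between the A101D sets (median 0.01), close to the shares of all tested genes (33.0% and 32.3%). The scaffold SAV1 was 2.40-fold higher (20.2 ± 0.97 to 48.5 ± 1.27 CPM, SD, n = 4; adjusted p = 2.07e-24). The kinase LATS2, which inhibits YAP and is itself a YAP/TAZ target, was 2.28-fold higher (69.4 ± 4.63 to 158 ± 8.63 CPM; adjusted p = 2.29e-26). In MeWo 1 was higher and 7 lower (median -0.08; all genes 4.65% and 8.85%), with WWC1 at -0.31 ± 0.07 and WWC3 at -0.27 ± 0.05 (log2, SE). Between the lines 6 were higher and 11 lower in MeWo (median -0.46; all genes 38.1% and 40.5%). WWC3, FRMD6 and AMOT were 2.84-, 2.71- and 2.45-fold lower, and the protocadherin FAT4 was the exception in size, with 48 counts over all A101D libraries against 4946 in MeWo, a ratio of 105 (95% interval 79.3 to 143, counting error only).

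Of the 7 tested YAP/TAZ and TEAD factors, 2 were higher and 5 lower in the second set of A101D (median -0.32). TEAD4 was 1.69-fold lower (50.6 ± 1.79 to 30.02 ± 3.0 CPM, SD, n = 4; adjusted p = 2.17e-16), and TEAD3 1.54-fold lower (adjusted p = 8.18e-12). In MeWo 4 were lower and 0 higher by limma (4 and 0 at an unadjusted p under 0.05; 8.85% and 4.65% of all tested genes passed), with TEAD3 at -0.37 ± 0.07 and TEAD4 at -0.26 ± 0.06 (log2, SE). This TEAD4 call was lost without the filter on low counts (adjusted p = 0.0595; range over the alternatives 0.000988 to 0.0595). Between the lines, the TEAD cofactor VGLL3 was 2.03-fold higher in MeWo, and TEAD4, TEAD3 and TEAD2 were 1.77-, 1.31- and 1.15-fold lower. The TEAD2 call was lost without A101D replicate 2 (adjusted p = 0.0519) or replicate 4 (0.0537). These line differences are over all libraries. Of the 4 tested factors outside the 9 genes, 3 were lower in MeWo in replicates 1-4. In replicates 5-8 it was 2, and 1 did not pass.

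Of 13 tested TGF-beta ligand and latency genes, 7 were higher and 4 lower in the second set of A101D (median 0.15). INHBA, the activin A subunit, was 6.76-fold higher (1.19 ± 0.06 to 8.14 ± 0.70 CPM, SD, n = 4; adjusted p = 7.34e-21), and NRROS, which holds latent TGF-beta at the cell surface, was 3.15-fold higher from 1.55 ± 0.25 CPM (adjusted p = 2.49e-14). In MeWo 0 were higher and 3 lower by limma (1 and 4 at an unadjusted p under 0.05; median -0.16), among them TGFB1 (-0.29 ± 0.09, adjusted p = 0.0223) and THBS1 (-0.32 ± 0.10, 0.0489). The THBS1 call was lost in 17 of its 23 alternatives (adjusted p from 0.026 to 0.928), 5 of them changes of scaling or filter and 12 with 1 library left out (A101D replicate 2, 4, 5, 6 or 7 or MeWo replicate 1, 2, 3, 4, 5, 6 or 7; adjusted p from 0.0587 to 0.135). The TGFB1 call was lost in 7 of 23 (0.013 to 0.142), among them leaving out MeWo replicate 2, 3, 6 or 8 (adjusted p = 0.0614, 0.0573, 0.0665 and 0.0898).

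Between the lines, 4 of these genes were higher and 7 lower in MeWo (median -0.26). LRRC32, which also presents latent TGF-beta, had 8 counts over all A101D libraries against 1341 in MeWo, a ratio of 171 (95% interval 86.7 to 398, counting error only). INHBA was 15-fold higher over all libraries, an average over A101D sets that themselves differed 6.76-fold. The latent TGF-beta binding protein LTBP1 was 11.9-fold lower, and THBS1, which can activate latent TGF-beta, 4.06-fold lower.

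Between the lines and between the A101D sets, the largest named differences of the receptors and SMADs were smaller than those of the ligand and latency genes. Of 11 genes, 3 were higher and 6 lower in the second set of A101D (median -0.24), the activin receptor ACVR2A by 0.59 ± 0.07 and the common SMAD4 by -0.50 ± 0.04 (log2, SE). In MeWo 0 were higher and 4 lower by limma (0 and 5 at an unadjusted p under 0.05), including the co-receptors TGFBR3 (-0.30 ± 0.05) and ENG (-0.20 ± 0.05). Between the lines 4 were higher and 6 lower in MeWo (median -0.21), with ACVR2B 2.39-fold and SMAD4 1.84-fold higher and SMAD3 2.27-fold and TGFBR3 2.21-fold lower.

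Of 12 tested inhibitors and feedback genes, 6 were higher and 4 lower in the second set of A101D (median 0.18). PMEPA1, a feedback inhibitor, was 2.29-fold lower (150 ± 11.8 to 65.8 ± 10.5 CPM, SD, n = 4; adjusted p = 1.6e-08), the opposite of SMAD7, and FSTL3, which binds activin, was 2.03-fold lower (adjusted p = 6.09e-14). In MeWo 0 were higher and 2 lower by limma (1 and 5 at an unadjusted p under 0.05), FSTL3 (-0.26 ± 0.06) and the repressor TGIF2 (-0.23 ± 0.06), whose call was lost without the filter on low counts (adjusted p = 0.0588; range over the alternatives 0.000338 to 0.0588). Between the lines 6 were higher and 4 lower in MeWo (median 0.28): FSTL3, PMEPA1 and the SMAD repressor SKI were 2.72-, 2.7- and 2.60-fold higher, and the activin-binding FST was 7.92-fold lower.

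Of 18 TGF-beta targets, 7 were higher and 9 lower in the second set of A101D (median -0.11), where 65.2% of all tested genes passed in either direction. The early response gene KLF10 was 3.0-fold higher (34.4 ± 2.64 to 104 ± 17.5 CPM, SD, n = 4; adjusted p = 8.86e-09). In MeWo 1 was higher, SNAI2 (0.13 ± 0.04), and 2 were lower, with COL4A1 at -0.18 ± 0.04 (13.5% of all genes passed). The SNAI2 call was lost without MeWo replicate 4 (adjusted p = 0.0755) or replicate 7 (0.0524; range over the alternatives 7.67e-05 to 0.0755), and the COL4A1 call without the filter on low counts (0.0963; range 0.000251 to 0.0963). Between the lines 7 were higher and 9 lower in MeWo (median -0.54; 78.5% of all genes passed), with fibronectin (FN1) 6.77-fold and TAGLN 3.17-fold lower. CDKN2B, a cyclin-dependent kinase inhibitor, had 0 counts in the A101D libraries and 4400 in MeWo, and its level was at least 1498-fold that of A101D if 3 counts are taken as the upper limit over the A101D libraries.

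**Figure D4:**
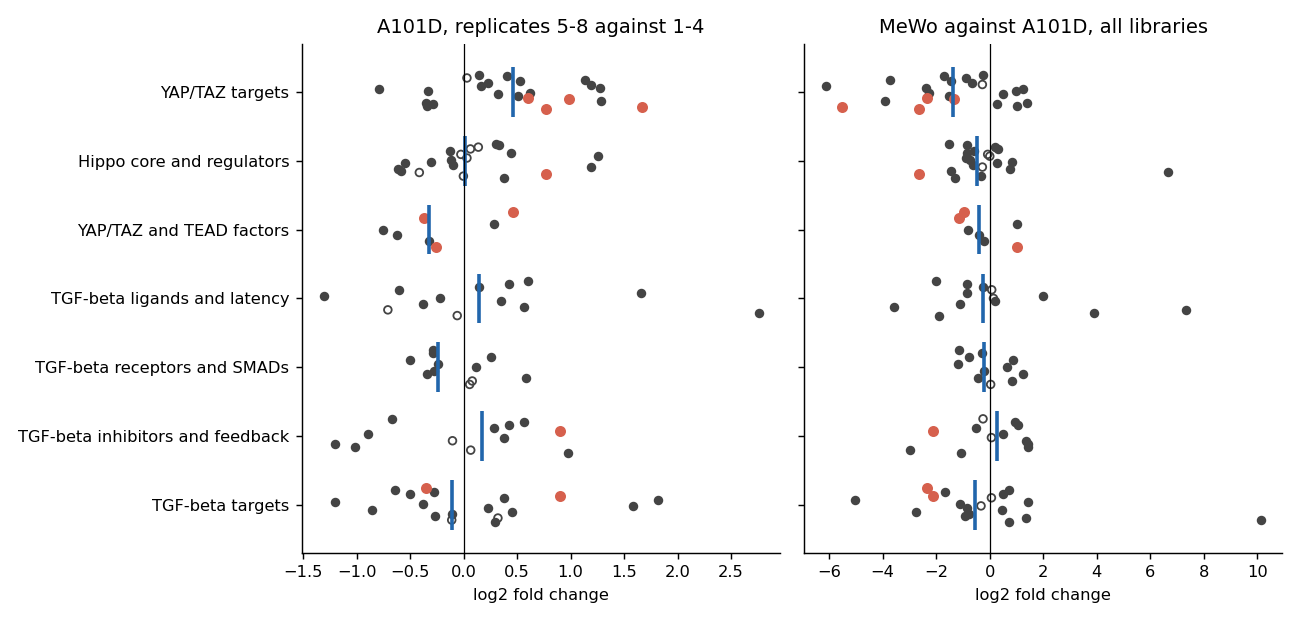
Log2 fold changes of the tested genes of each pathway list, on the left between the sets of A101D and on the right between the lines. Filled points passed the threshold, open points did not, red points are genes of the 9 and blue bars are list medians. The YAP/TAZ target median was 0.46 on the left and -1.38 on the right, and genes of the TGF-beta lists lay on both sides of 0.

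Some lists share genes (AMOTL2, LATS2 and PTPN14, for example, are both targets and regulators), so their counts are not independent of one another. Markers of other cell types also moved between the A101D sets. Summed fibroblast markers were 948 to 1065 CPM in replicates 1-4 and 609 to 675 CPM in replicates 5-8, mostly from COL1A2. By the test, however, 4 of the 8 were higher in the second set and 2 lower, COL1A2 among them (list median 0.46, log2). Of these 8 markers 5 were at 1 CPM or more, and the defining genes COL1A1, COL3A1 and DCN were below that. Summed endothelial markers were 108 to 124 CPM and 145 to 156 CPM, mostly from KDR, with PECAM1 and CLDN5 below 1 CPM. Keratinocyte and epithelial markers were 34.8 to 37.3 CPM and 41.4 to 44.6 CPM with 1 and 3 of 7 at 1 CPM or more, and leukocyte markers 4.76 to 6.40 CPM and 8.43 to 10.1 CPM with 2 of 7. By the test, 5 of the 6 endothelial markers were higher in the second set of A101D and 1 lower (list median 1.37, log2). All 3 tested keratinocyte and epithelial markers were higher (median 1.26), as was 1 of the 2 tested leukocyte markers, with 0 lower (all tested genes: 33.0% higher and 32.3% lower). In MeWo the fibroblast markers had sums from 79.4 to 91.0 CPM, although 4 of the 8 were higher than in A101D and 4 lower, and the sums of the other lists were for the endothelial from 3.16 to 3.68, the keratinocyte and epithelial from 20.3 to 25.9 and the leukocyte from 0.773 to 1.35. The part of these genes in the differences described above was not tested.

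Among 10129 genes with at least 10 CPM on average, those whose profile over the 16 libraries lay nearest to CCN1 (root mean square difference of centred log2 CPM) were ARHGEF28 (0.12), SPRYD3 (0.13), SLC12A9 (0.14), ZNF827 (0.15) and HDAC9 (0.15), where the median over all genes was 0.85. Nearest to CCN2 were RGS3 (0.12), HHEX (0.12), SERPINE2 (0.15), LAMB3 (0.15) and ENC1 (0.15), with a median of 1.27. HHEX, for example, had means of 31.5 and 52.1 CPM in the A101D sets and 7.78 and 7.27 CPM in MeWo. AMOTL2 (rank 35, 0.22) and SMAD7 (rank 42, 0.22) were close to CCN2, and the nearest to CCN1 among the other 8 was YAP1 (rank 228, 0.29). CCN1 and CCN2 themselves were 0.54 apart. This is a likeness over libraries of 2 lines and their sets only.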

How the data were processed

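RNA-seq libraries from total RNA (stranded kit, per the labels' protocols) covered 8 replicates each of A101D and MeWo. The authors deposited 1 table per line of whole-number counts per gene, with identifier and count joined in each cell (unit recorded as other), which were separated here. The submitters' processing notes name GRCh38, Trimmomatic 0.39-1, STAR 2.7.1a and featureCounts 2.0.0. No source used here gives the annotation release or the strand setting, and positions and merged exon lengths are from GENCODE 29. All columns were used.

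CPM used trimmed mean of M-values (TMM) library sizes. Genes needed 0.298 CPM (10 counts at the median depth) in 4 or more libraries and a total of 15 counts. Tests used limma 3.58.1 (voom, R 4.3.3), 1 fit with a mean per line and 1 with a mean per line and replicate set (1-4 or 5-8), with Benjamini-Hochberg adjustment over 21569 genes and a threshold of 0.05. A count model was not run. In simulated data the fit over the lines found 72% of 1.5-fold and 91% of 2-fold changes, with 8.43% of calls false. The fit over the A101D sets found 61% and 88%, with 6.29% false. The simulation changed 100 of the 21569 genes at each fold, gave all genes the same spread and held no other difference between groups. In the data 78.5% of genes passed between the lines and 65.2% between the A101D sets. The simulated rates therefore do not give the error rates of the tests here.

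Replicate numbers recur in both lines. Correlations of same-numbered deviations ran from -0.10 to 0.22, with 2 of 8 over 0.1, so the numbers were not taken as pairs. No 2 libraries agreed within sampling noise. The 9 genes, the lists and the division into replicates 1-4 and 5-8 were chosen with earlier results of these data known. The p-values between the sets and of the interaction therefore do not test a grouping fixed beforehand. They compare these libraries and no stated condition. Named from each list were up to 4 other genes with the largest passing line differences and up to 2 with the largest passing set differences in each line (mean of at least 1 CPM), and the 5 genes nearest to CCN1 and to CCN2. A gene that this rule names among the TGF-beta targets is not reported here. Alternatives changed the scaling, the filter, the model and the libraries.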

Additional observations from a re-analysis of the deposited data

Results flagged for a closer look

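The change between the replicate sets differed between the lines, by the interaction term, for 8 of the 9 genes. On the log2 scale (MeWo change minus A101D change) it was -0.99 for CCN1, -0.83 for CCN2, -1.81 for ANKRD1 and -0.64 for AMOTL2. It was 0.36 for TGFBI, -1.11 for SMAD7, 0.13 for TEAD1 and -0.49 for YAP1.

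In some groups 1 library stood far from the others, by Dixon's gap test. CCN2 was at 232.0 CPM in A101D replicate 3 and at 53.6 CPM in MeWo replicate 4, each the highest of its set. ANKRD1 was at 79.9 CPM in A101D replicate 8, the highest of its set. SMAD7 was at 6.11 CPM in MeWo replicate 1, the highest of its set and of all 8 MeWo libraries. Over 54 groups of libraries 5 such gaps were found, and chance gives about 2.7. The groups of a whole line hold those of its sets, and the SMAD7 library counts in both, so the 5 gaps are not independent.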

How the results depend on the processing

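Over the alternatives all 9 genes kept their direction and stayed past the threshold between the lines (over all libraries and in each set) and between the A101D sets. Between the MeWo sets 2 to 3 of the 9 passed, and in the interaction 7 to 9. Genes past the threshold between the MeWo sets numbered 2911, but 1736 without the filter on low counts, and 2038 to 3606 when 1 library was left out. Library totals as the only scaling moved the median of all genes between the A101D sets to 0.11 (log2), and the share of higher calls between the MeWo sets from 34.5% to 66.3% (54.8% with upper-quartile factors, 48.7% with a filter at 1 CPM). Small MeWo set differences that never passed changed sign: CCN1 was -0.01, but 0.03 with upper-quartile factors, 0.05 with library totals, 0.02 with a filter at 1 CPM and 0.01 with the filter in 8 libraries (-0.05 to 0.06 with 1 library left out). YAP1 was 0.01 with upper-quartile factors and 0.03 with library totals. With 1 library left out ANKRD1 ran from -0.30 to 0.03 and TGFBI from -0.02 to 0.06. The cause of these shifts was not tested. With the replicate number as a block, which the data do not show to pair the libraries (2 of 8 libraries correlated best with their own number), 17137 genes passed between the lines over all libraries, 17145 in replicates 1-4, 18151 in replicates 5-8 and 10554 in the interaction, and the block changed no call of the 9. Among the 9 genes, depth was lowest for ANKRD1 in MeWo, at 20 to 46 counts per library.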
